A study of Mus musculus with 12 samples.

Results

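The response of the aged mouse striatum to intracerebral hemorrhage (ICH) was measured by RNA sequencing in 6 of the 12 samples of the series, the 3 aged ICH and the 3 aged sham samples, which were chosen by their labels. All mice were male wild-type C57BL/6, and the aged mice were 20 to 22 months old. ICH was induced with type IV collagenase, an enzyme that digests the collagen of the vessel wall so that blood leaks into the tissue, and sham controls received saline instead. Tissue was taken at 24 h from the caudate putamen around the hematoma, on the injected side, after the blood had been flushed out with buffer. Each sample pooled tissue of 2 to 3 mice, so that a *P* value measures the spread between pools and not between animals. The 6 samples of young mice, 8 to 10 weeks old and treated alike, entered the same fit and are used here only for comparison.

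The caudate putamen is built mainly of inhibitory striatal projection neurons, crossed by myelinated bundles and served by astrocytes, microglia and vessels. After a hemorrhage, plasma proteins and red cell contents enter the tissue, resident glia change their expression within hours, and neutrophils followed by monocytes leave the blood. Heme is broken down by heme oxygenase, the iron set free is bound by ferritin, and astrocytes at the border of the lesion switch on intermediate filament and acute phase genes.

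The libraries held between 28410896 and 37785160 counts over all 12 samples, and 21495 genes of the 54833 in the table passed the filter on low counts. Levels are given as CPM, counts scaled to library size after normalization for library composition. The groups were not even in 3 respects that belong to single libraries. The summed level of 32 striatal projection neuron genes was 7995, 8727 and 5705 CPM in the aged sham samples, and 2311, 6730 and 3585 CPM in the aged ICH samples, so that aged ICH replicate 2 lay within the sham range. Further, 18 choroid plexus and ependymal genes summed to 79.3 to 124 CPM in the aged sham samples and to 56.3 CPM in aged ICH replicate 3, but to 1645 and 2093 CPM in aged ICH replicates 1 and 2. The transthyretin gene Ttr, made by the choroid plexus, read 1423 and 1810 CPM in those 2 libraries against 28.6 to 64.9 CPM in the other aged samples. Lastly, reactive astrocyte genes summed to 732 CPM in aged sham replicate 2 and to 1688 and 1851 CPM in the other aged sham samples. The defining markers Drd1, Drd2, Adora2a, Ppp1r1b and Penk of the striatum were present in every library, the lowest being Drd2 at 5.49 CPM in aged ICH replicate 1. The 16 cortical excitatory neuron genes summed to 1895 to 2315 CPM in the sham and 1674 to 2376 CPM in the ICH samples.

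**Figure D1:**
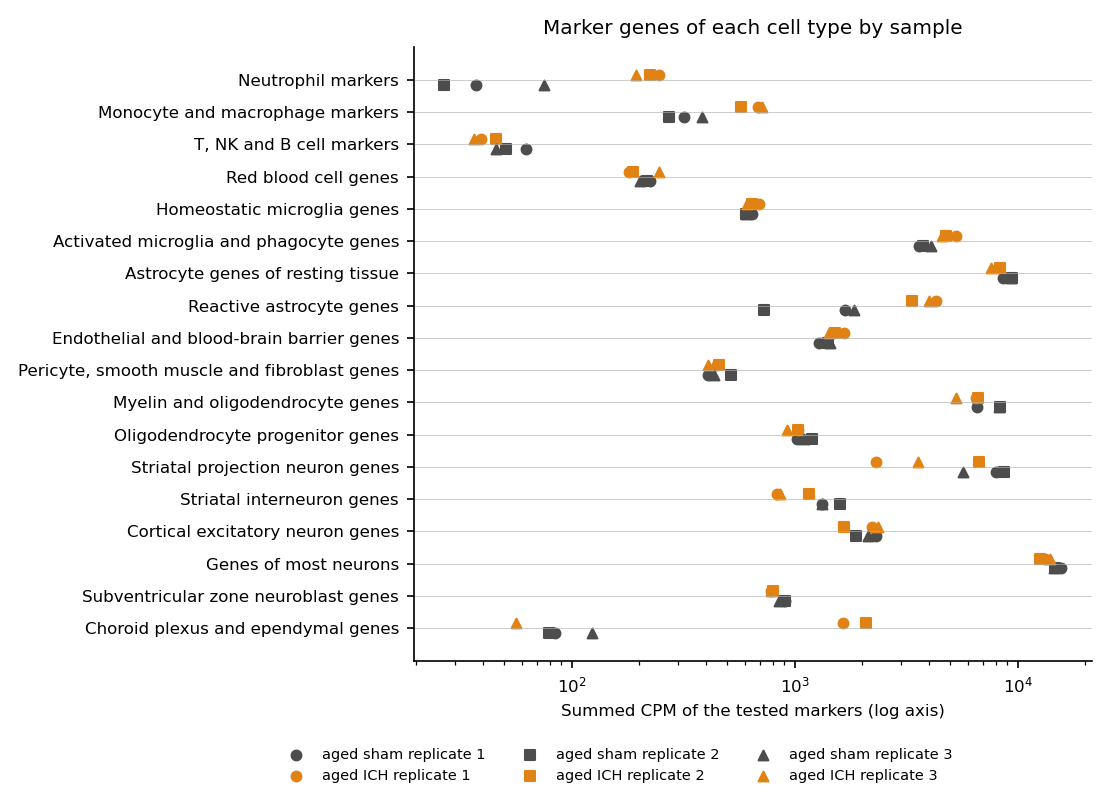
Summed CPM (log axis) of the tested marker genes of each cell type, with 1 point for each aged sham (grey) and aged ICH (orange) sample and the marker shape giving the replicate. Neutrophil, monocyte, activated microglia and reactive astrocyte sums were higher in every ICH than in every sham sample (neutrophil and reactive astrocyte lists share Lcn2). Lymphocyte, resting astrocyte, striatal interneuron, general neuron and neuroblast sums were lower in every ICH sample. For lymphocytes, 10 of the 12 tested markers nevertheless had a log2FC above 0. Striatal projection neuron sums overlapped between groups, and choroid plexus sums were high in aged ICH replicates 1 and 2 alone.

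Between aged ICH and aged sham samples, 2828 of the 21495 genes passed an adjusted *P* of 0.05 in edgeR's quasi-likelihood test (13.2%). Of these, 1505 were higher (7.0%) and 1323 were lower (6.15%) after ICH. These 2 shares are the background for the counts of each gene list given below. The rises were larger than the falls. The median log2FC was 0.70 among the genes that rose and −0.38 among those that fell, beside 0.0018 over all tested genes. More than a 2-fold change was seen for 481 of the rises and 73 of the falls, and more than 4-fold for 88 and 2. The genes that fell were expressed at higher levels per length, with a median of 12.2 FPKM (fragments per kilobase of transcript, scaled to sequencing depth) in the aged sham samples against 3.27 FPKM for the genes that rose and 2.88 FPKM for all tested genes. They were also longer: protein-coding genes that fell spanned a median of 67.8 kb, those that rose 14.4 kb and all tested protein-coding genes 24.5 kb. Together, the genes that rose took up 44950 to 51690 CPM of the sham and 67830 to 77250 CPM of the ICH libraries, and the genes that fell went from 179800 to 190500 CPM in sham to 135300 to 147500 CPM in ICH. In bulk tissue, fewer cells of a type and less RNA per cell cannot be told apart.

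Both counts varied with the library left out. Without aged ICH replicate 1 they were 409 and 270, without aged ICH replicate 3 they were 751 and 471, without aged sham replicate 1 they were 751 and 471, without aged sham replicate 2 they were 714 and 559, and without aged sham replicate 3 they were 1170 and 1000. Without aged ICH replicate 2 they were higher, at 1576 and 1442. Scaled to total counts alone, which moved the median of all genes from 0.0018 to 0.072, the test called 2100 rises and 747 falls, and rises then made up 73.8% of the calls in place of 53.2%. None of the 2828 genes changed direction under any of the settings tried. Nearly all of them had no overlap between the ICH and sham samples, and every setting reused these samples. A change of direction was therefore unlikely from the start.

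**Figure D2:**
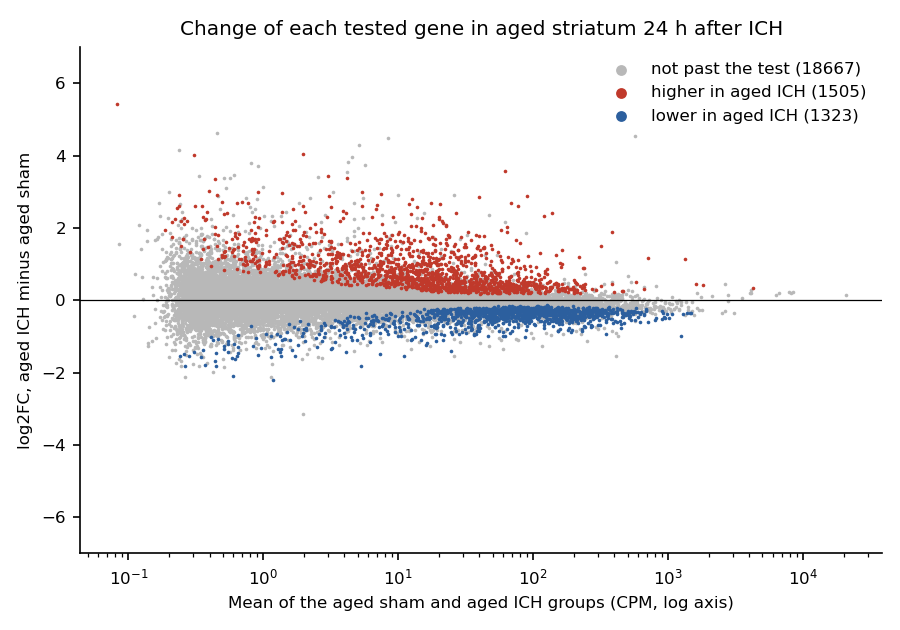
log2FC of each of 21495 tested genes (aged ICH minus aged sham) against its mean over the 2 aged groups (CPM, log axis), with genes past the test in red (1505 higher) and blue (1323 lower). Rises reached further from 0 than falls, and the falls lay at higher expression.

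Among genes with at least 10 CPM in the higher group and no overlap between the 3 ICH and 3 sham samples, Thbs1 (ENSMUSG00000040152) rose most. It encodes thrombospondin 1, a matrix protein released by platelets and macrophages. Its level was 9.63, 3.54 and 15.5 CPM in the aged sham samples and 98.8, 95.7 and 145 CPM in the aged ICH samples, a log2FC of 3.56 (SE 0.42, adjusted *P* = 0.0029). Lcn2, which encodes the iron-carrier-binding lipocalin 2, went from 17.6, 6.44 and 40.2 CPM to 172, 163 and 139 CPM (log2FC 2.88, SE 0.52, adjusted *P* = 0.0075). In both genes the lowest ICH sample stood at least 3 times above the highest sham sample, and aged sham replicate 2 was the lowest of all. Chil3, an alternative activation marker of macrophages, had a log2FC of 2.94 (SE 0.48, adjusted *P* = 0.0055), and Hspb1, a small heat shock protein of reactive astrocytes, went from 5.30, 3.24 and 5.60 CPM to 46.2, 20.7 and 23.6 CPM (log2FC 2.68, SE 0.34, adjusted *P* = 0.0032). The chemokine genes Ccl6, Ccl7 and Ccl2 rose by a log2FC of 2.67, 2.64 and 2.59. The stromelysin gene Mmp3 (log2FC 2.81), the arginase gene Arg1 (2.66) and the transglutaminase gene Tgm1 (2.61) were also among the largest rises, together with a locus without a symbol (2.68).

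Some of these calls depended on single libraries. Mmp3 no longer passed without aged ICH replicate 1 or 2 or aged sham replicate 1 or 2, Arg1, Tgm1, Ccl2 and the locus without a symbol not without aged ICH replicate 1 or 3 or aged sham replicate 1. Over the 18 alternative settings the adjusted *P* ranged from 0.0034 to 0.082 for Mmp3, from 0.0024 to 0.082 for Arg1, from 0.0058 to 0.10 for Tgm1, from 0.0028 to 0.078 for Ccl2 and from 0.0013 to 0.067 for the locus without a symbol. Thbs1, Chil3, Lcn2, Hspb1, Ccl6 and Ccl7 passed without any 1 of the 6 aged samples.

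**Figure D3:**
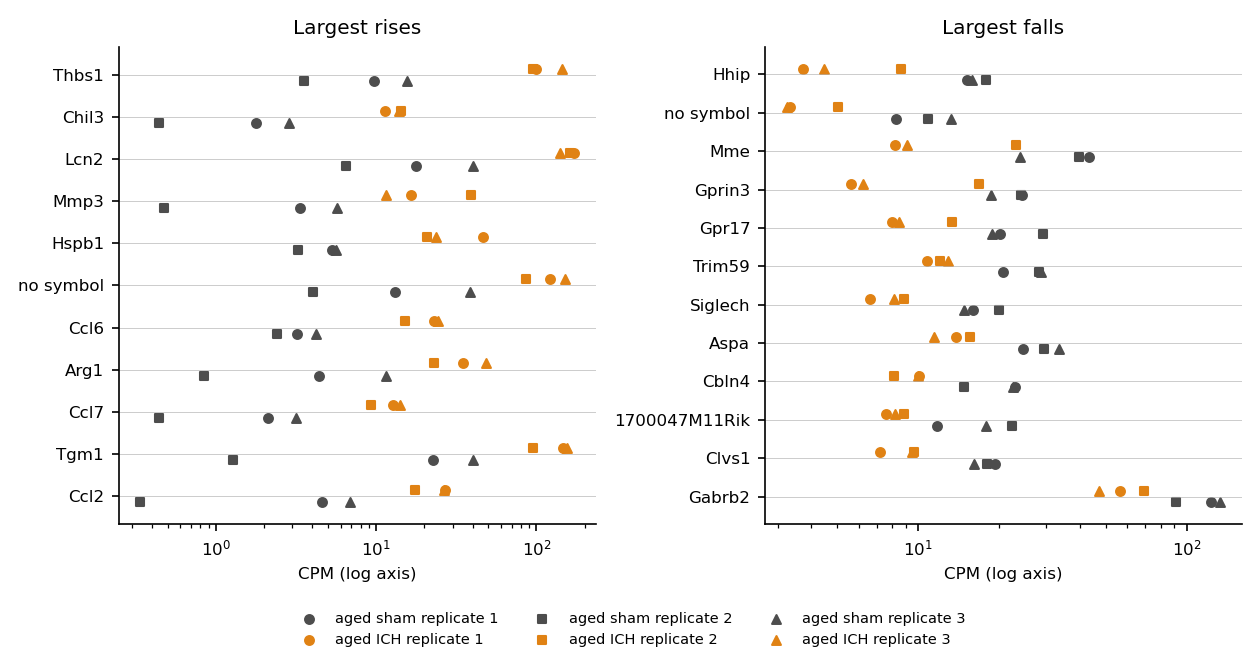
CPM (log axis) of 11 of the 12 genes with the largest rise and the 12 with the largest fall in the aged ICH (orange) and aged sham (grey) samples, the marker shape giving the replicate. The groups do not overlap by the choice of the genes. Aged sham replicate 2 is the lowest sample for every rise shown. Aged ICH replicate 2 is the ICH sample nearest to sham for every fall shown except Trim59 and Cbln4.

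The genes with the smallest *P* had smaller but tighter changes. Fcgr3, an activating receptor for immunoglobulin G on microglia and macrophages, read 26.1, 21.0 and 26.1 CPM in aged sham and 50.6, 46.5 and 51.7 CPM in aged ICH samples (log2FC 1.03, SE 0.09). The metallothionein gene Mt1, whose product binds zinc and copper, went from 160, 138 and 203 CPM to 499, 413 and 501 CPM (log2FC 1.5, SE 0.14). Both had an adjusted *P* of 0.00074 in edgeR, as did the transcription factor gene Maff (log2FC 1.70), the scaffold gene Akap12 (1.04), the kinase gene Map3k6 (1.33) and Ccl6. Igfbp3 (1.31) and Ccl9 (2.38) followed at 0.0015.

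Chemokine genes changed in both directions. Of 28 tested, 11 rose, 2 fell and 15 did not pass (39.3% and 7.14%, against 7.0% and 6.15% of all tested genes), and their median log2FC was 1.43. Their summed level, to which Cx3cl1 added more than any other member, was lower after ICH, at 774.4, 757.9 and 737.2 CPM in the aged sham and 729.8, 692.4 and 676.5 CPM in the aged ICH samples. Ccl6 and Ccl9, made by myeloid cells, read 2.39 to 4.19 CPM and 2.63 to 5.24 CPM in the aged sham samples and 15.2 to 24.1 CPM and 17.3 to 23.8 CPM in the aged ICH samples. The neutrophil attractants Cxcl1 and Cxcl2 rose from at most 3.68 and 1.83 CPM to at least 8.02 and 5.15 CPM (log2FC 2.61 and 3.38), with aged sham replicate 3 as the highest sham sample in both. Cxcl1 failed the test without aged ICH replicate 1 or 3 or aged sham replicate 1 or 2, and Cxcl2 without aged ICH replicate 1 or 3 or aged sham replicate 1, with adjusted *P* over the alternatives of 0.0043 to 0.12 and 0.0024 to 0.078. The platelet factor gene Pf4 also rose (1.56). The genes that fell were Cx3cl1, the neuronal ligand of the microglial fractalkine receptor, from 537, 528 and 460 CPM to 296, 385 and 316 CPM (log2FC −0.61, SE 0.11, adjusted *P* = 0.0068), and Cxcl12, from 58.4, 81.2 and 77.5 CPM to 48.0, 33.2 and 38.5 CPM (log2FC −0.86, SE 0.16, adjusted *P* = 0.0088). The number of risen chemokine genes was 4 without aged ICH replicate 1, 5 without aged ICH replicate 3 and 4 without aged sham replicate 1, and the 2 falls passed each time.

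Of 26 cytokine, receptor and decoy genes, 16 rose and none fell (median log2FC 1.19). Members of the interleukin 6 family were among them. Il6 itself was low, at 0.132, 0.371 and 0.419 CPM in aged sham and 3.21, 2.34 and 1.79 CPM in aged ICH samples (log2FC 2.97, SE 0.44, adjusted *P* = 0.0046). Il11 (log2FC 2.57), Clcf1 (2.0) and the receptor gene Osmr (1.43) of the same family rose too. Receptors of other cytokines on the list rose by a log2FC of 1.89 for the decoy receptor Il1r2, 1.55 for Il4ra and 1.44 for Tnfrsf1a. The classical early cytokines did not pass: Il1b read 1.56, 0.472 and 6.62 CPM in sham and 8.22, 6.97 and 7.73 CPM in ICH samples (log2FC 1.39, SE 0.63, adjusted *P* = 0.17), and Tnf overlapped between the groups (log2FC 0.46, SE 0.51, adjusted *P* = 0.60). The count of 16 was 11 without aged ICH replicate 1 and between 12 and 18 without each other aged sample.

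Promoters of some of these genes hold the letters bound by nuclear factor kappa B, and Nfkbia, which encodes the inhibitor that restrains this factor, rose from 25.4 to 29.7 CPM in sham to 46.4 to 52.4 CPM in ICH samples (log2FC 0.84, SE 0.12, adjusted *P* = 0.0045). In windows of 250 bases before to 50 after each RefSeq gene start (GRCm38.p6), GGG, 2 bases of any kind and TTTCC on either strand was found in 4 of 24 windows of chemokine genes, in 7 of 28 of the cytokine list, in 3.46% of 1359 windows of all risen genes, 1.11% of 1356 windows of all fallen genes and 1.66% of 17118 windows of all tested genes. The stretches below are shown because they belong to risen genes of these lists. They are read 5′ to 3′ along the gene, and the capitals mark the match.
Cxcl1, chr5:90891146-90891193, plus strand: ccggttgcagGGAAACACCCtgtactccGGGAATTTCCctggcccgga
Cxcl2, chr5:90903792-90903840, plus strand: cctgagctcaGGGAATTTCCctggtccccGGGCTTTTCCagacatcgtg
Ccl9, chr11:83578652-83578681, minus strand: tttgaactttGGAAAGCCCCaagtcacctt
Il6, chr5:30013060-30013089, plus strand: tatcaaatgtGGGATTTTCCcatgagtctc
Il4ra, chr7:125552281-125552310, plus strand: ccttctcgcaGGAAAGCCCCgcgcggcgcg
Nfkbia, chr12:55492657-55492686, minus strand: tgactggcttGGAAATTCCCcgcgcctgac
A match is a description of the sequence, and binding was not measured.

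Interferon-induced genes were higher throughout in aged ICH samples. All 32 type I interferon-induced genes tested had a log2FC above 0, and 21 passed the test (median 1.25). Stat2, a subunit of the interferon-activated transcription factor, went from 57.5, 36.0 and 53.8 CPM to 129, 80.4 and 106 CPM (log2FC 1.10, SE 0.19, adjusted *P* = 0.0066). It was the only one of the 21 that passed without each of the 6 aged samples in turn. The antiviral genes Rsad2 and Ifit1 read 14, 3.91 and 13.3 CPM and 25.8, 6.81 and 17.7 CPM in sham, and 45.9, 24.0 and 38.4 CPM and 62.3, 36.5 and 41.1 CPM in ICH samples (log2FC 1.79 and 1.48). Here aged sham replicate 2 was the lowest and aged ICH replicate 1 the highest sample. The count of 21 fell to 1 without aged ICH replicate 1, to 6 without aged ICH replicate 3, to 5 without aged sham replicate 2 and to 9 without aged sham replicate 3, and was 30 with the replicate number as a block and 14 with the 6 aged samples alone. Rsad2 failed without aged ICH replicate 1 or 3 or aged sham replicate 2 and Ifit1 failed without these and without aged sham replicate 3 (adjusted *P* over the alternatives from 0.0037 to 0.099 and from 0.0070 to 0.14).

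Interferon-inducible GTPases, which act against intracellular microbes, were higher in 14 of 14 genes tested, 10 of them past the test (median 1.36). Iigp1 went from 10.1, 3.94 and 6.59 CPM to 31.7, 17 and 25.4 CPM (log2FC 1.84, SE 0.34, adjusted *P* = 0.0084) and Gbp6 from 3.58, 1.96 and 2.85 CPM to 11.7, 5.62 and 9.30 CPM (log2FC 1.67, SE 0.32, adjusted *P* = 0.0099). These genes are near-identical copies in places, and reads shared between them may have been split or left out. Antigen presentation followed the same direction. Of 12 class I genes 9 rose (median 0.91), among them the peptide transporter gene Tap2 (log2FC 0.97, SE 0.17, adjusted *P* = 0.0064), and of 7 class II genes 5 rose (median 1.42), none of which passed without aged ICH replicate 1 or 3 or aged sham replicate 1 or 2. The GTPase count was 2 without aged ICH replicate 1 and 4 without aged ICH replicate 3. The class I count was 1 without aged ICH replicate 1, 4 without aged ICH replicate 3, 3 without aged sham replicate 2 and 5 without aged sham replicate 3.

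The interferon-stimulated response element, searched as GAAA, 2 bases of any kind and GAAA on either strand, stood in 13 of 26 promoter windows of the type I interferon list and 9 of 11 windows of the GTPase list. It was found in 6.70% of windows of all risen genes, 2.14% of those of fallen genes and 3.16% of those of all tested genes. The stretches printed below are from risen members of both lists, in the same layout, and show how the repeated letters are spaced.
Stat2, chr10:128270266-128270295, plus strand: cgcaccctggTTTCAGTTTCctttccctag
Rsad2, chr12:26456553-26456582, minus strand: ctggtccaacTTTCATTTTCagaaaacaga
Ifit1, chr19:34640775-34640823, plus strand: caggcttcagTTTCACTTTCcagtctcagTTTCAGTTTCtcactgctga
Irgm1, chr11:48871425-48871460, minus strand: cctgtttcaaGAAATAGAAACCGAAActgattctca
Gbp3, chr3:142559989-142560024, plus strand: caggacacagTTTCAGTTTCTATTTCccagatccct
Gbp7, chr3:142530273-142530302, plus strand: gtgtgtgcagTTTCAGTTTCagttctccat
In Irgm1 and Gbp3 overlapping matches run into each other, and Ifit1 holds separate ones. Of the other motifs searched, the AP-1 site TGANTCA was in 8.39% of windows of risen, 4.28% of fallen and 5.67% of all tested genes, the cyclic AMP response element TGACGTCA in 2.65%, 3.02% and 2.65%, and the E-box CACGTG in 9.27%, 6.56% and 8.94%. For the sterol response element TCACNCCAC the shares were 1.62%, 1.11% and 1.16%, and for the heat shock element they were 0.442%, 0.369% and 0.502%. The short metal response element TGCNCNC (57.1%, 62.5% and 59.1%) and the antioxidant response element TGANNNNGC (42.2%, 40.7% and 42.6%) were in a large part of all windows. The windows also differed in base composition. The median share of G and C was 59.3% for all tested, 59% for risen and 61.7% for fallen genes. It was 52.2% for the type I interferon list and 46% for the GTPase list. Neither the shares of motifs nor the part of base composition in them was tested.

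Marker genes of myeloid cells that arrive from the blood were higher after ICH. Of 20 neutrophil markers on the list, 13 had enough counts to be tested. The others had at most 18 counts in any aged sample. Among these, Stfa2l1, Padi4 and Mpo had more counts in every ICH than in every sham sample. Ly6g, Camp, Elane and Cxcr1 overlapped between the groups. Of the 13 tested, 8 rose (median log2FC 1.87), and their summed level went from 26.9 to 75.5 CPM in sham to 194.8 to 245.9 CPM in ICH samples. Most of that sum after ICH was Lcn2, which is also on the reactive astrocyte list. Without Lcn2 the other 12 markers summed to 19.7, 20.5 and 35.2 CPM in sham and 74.4, 61.2 and 55.4 CPM in ICH samples. Retnlg, a resistin-like gene of mature neutrophils, read 0.331, 0.270 and 0.329 CPM in sham and 1.2, 1.52 and 1.48 CPM in ICH samples (log2FC 2.16, SE 0.44, adjusted *P* = 0.012). Of 22 monocyte and macrophage markers 12 rose (median 1.47). The largest log2FC of this list, 3.56, was that of Thbs1, which is also counted with the coagulation genes. The chemokine receptor gene Ccr1 went from 2.32, 0.405 and 3.32 CPM to 11.6, 9.48 and 13.6 CPM (log2FC 2.51, SE 0.52, adjusted *P* = 0.013). The scavenger receptor gene Cd36 rose from at most 1.32 CPM to at least 2.94 CPM (log2FC 1.97). None of 12 lymphocyte markers passed in edgeR (median 0.67), and 1 rose in DESeq2. At an unadjusted *P* under 0.05 in edgeR 2 were higher and 1 lower (14.6% and 14.3% of all tested genes). Of the 12 tested, from a list of 22, 10 had a log2FC above 0 and 2 below. Their summed level was nevertheless lower after ICH, at 62.8, 50.6 and 45.9 CPM in sham and 39.2, 45.8 and 36.45 CPM in ICH samples. The sum thus went against most of its members. None of 7 red blood cell genes passed (median 0.12), with 1 higher and 1 lower at an unadjusted *P* under 0.05 and no call in DESeq2. The hemoglobin gene Hbb-bs read 23.8, 14.3 and 21.6 CPM in sham and 18.1, 14.4 and 34.4 CPM in ICH samples. The neutrophil count was 2 without aged ICH replicate 1 and 4 without aged sham replicate 1, and the monocyte count was 7, 7 and 6 without aged ICH replicate 1, aged ICH replicate 3 and aged sham replicate 1.

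Microglial genes moved in both directions. Of 29 genes of activated microglia and phagocytes 21 rose (median 0.85). They included Spp1, which encodes osteopontin, from 20.6, 21.1 and 40.2 CPM to 146, 73.6 and 84.5 CPM (log2FC 1.89, SE 0.35, adjusted *P* = 0.0080), the lysosomal gene Cd68 from 15.9, 13.4 and 15.7 CPM to 30.2, 25.2 and 25.7 CPM (log2FC 0.85, SE 0.12, adjusted *P* = 0.0039) and the adaptor gene Tyrobp (log2FC 0.82). Of 16 genes of homeostatic microglia 2 rose (12.5%) and 3 fell (18.8%, median 0.00). The falls were Siglech, a lectin gene, from 16, 20.0 and 14.8 CPM to 6.61, 8.84 and 8.14 CPM (log2FC −1.11, SE 0.20, adjusted *P* = 0.0073), the purinergic receptor gene P2ry12 from 30.9, 41.0 and 31.4 CPM to 18.4, 21.1 and 17.9 CPM (log2FC −0.85, SE 0.14, adjusted *P* = 0.0054), and the hexose transporter gene Slc2a5 (log2FC −0.63), which failed without aged ICH replicate 1 or 3 or aged sham replicate 1 or 2. Of the 2 rises, Fcrls (0.65) failed without aged ICH replicate 1 or aged sham replicate 2. The growth factor receptor gene Csf1r, carried by all microglia, read 111 to 114 CPM in sham and 126 to 130 CPM in ICH samples (log2FC 0.18, SE 0.07, adjusted *P* = 0.092). The count of 21 was 10 without aged ICH replicate 1.

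Innate sensing and complement genes rose with them. Of 24 pattern recognition genes 13 rose (median 0.95), including the lipopolysaccharide co-receptor gene Cd14 (log2FC 1.74, SE 0.30, adjusted *P* = 0.0062) and the receptor genes Tlr7 (0.93) and Tlr13 (0.92). Of 18 complement genes 11 rose (median 0.54). The first component genes C1qb and C1qc went from 66.3 to 70.0 CPM and 51.0 to 57.9 CPM in sham to 93.4 to 109 CPM and 73.6 to 85.6 CPM in ICH samples (log2FC 0.54 and 0.56), and the complement inhibitor gene Serping1 rose (log2FC 1.02, SE 0.19, adjusted *P* = 0.0087). The central component gene C3 did not pass (log2FC 1.69, SE 1.08, adjusted *P* = 0.33). Its levels of 53.1, 65.7 and 12 CPM in the ICH samples were high in the same 2 libraries as the choroid plexus genes, and the part of those genes in this value was not tested. The pattern recognition count was 3, 6, 7 and 6 without aged ICH replicates 1 and 3 and aged sham replicates 1 and 2, and the complement count was 3, 5, 4 and 6.

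Among the lists, reactive astrocyte genes had the largest share of risen members after the ribosomal protein genes. Of 28 tested all had a log2FC above 0 and 24 passed (median 1.65). Timp1, an inhibitor of matrix metalloproteinases, read 8.08, 4.92 and 12.5 CPM in sham and 51.6, 35.9 and 47.8 CPM in ICH samples (log2FC 2.40, SE 0.35, adjusted *P* = 0.0044). The transcription factor gene Cebpd (log2FC 2.12), the membrane protein gene Emp1 (2.04) and the intermediate filament genes Nes (1.67) and Vim (1.38) rose as well, Vim from 85.5, 55.5 and 130 CPM to 259, 218 and 227 CPM. The filament gene Gfap, the standard marker of astrocyte reaction, went from 1028, 450 and 1010 CPM to 1996, 1576 and 1891 CPM (log2FC 1.14, SE 0.27, adjusted *P* = 0.020) and failed without aged ICH replicate 1 or 3 (adjusted *P* over the alternatives from 0.00021 to 0.080). The count was 15 without aged ICH replicate 1 and 16 without aged ICH replicate 3. Of 20 astrocyte genes of resting tissue 2 rose and 3 fell (median −0.06), counts that were 1 and 0 without aged ICH replicate 1, 2 and 0 without aged ICH replicate 3, 1 and 3 without aged sham replicate 1, 1 and 0 without aged sham replicate 2, and 2 and 1 without aged sham replicate 3. Among them Aldh1l1, a folate enzyme used as a general astrocyte marker, rose from 60.2 to 73.2 CPM in sham to 91.6 to 106 CPM in ICH samples (log2FC 0.54, SE 0.09, adjusted *P* = 0.0060), and Glul, which encodes the enzyme that turns glutamate into glutamine, fell from 1486, 1878 and 1552 CPM to 1311, 1317 and 1184 CPM (log2FC −0.37, SE 0.10, adjusted *P* = 0.033), a call lost without aged ICH replicate 1 or 3 or aged sham replicate 2 (adjusted *P* over the alternatives from 0.0018 to 0.13).

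Genes that handle heme and iron were among those that rose. Of 21 heme, iron and metallothionein genes tested as 1 list, 11 rose and none fell (median 0.72). Hmox1, the inducible heme oxygenase, read 39.6, 6.51 and 84.8 CPM in aged sham and 264, 159 and 273 CPM in aged ICH samples (log2FC 2.41, SE 0.63, adjusted *P* = 0.028), with wide spread among the sham samples. It failed without aged ICH replicate 1 or 3 or aged sham replicate 1 (adjusted *P* over the alternatives from 0.0043 to 0.10). The ferritin light chain gene Ftl1 was tighter, at 89.0, 94.0 and 102 CPM against 155, 140 and 174 CPM (log2FC 0.72, SE 0.10, adjusted *P* = 0.0038). Hpx, which encodes the heme-binding hemopexin, rose from 0.472 to 0.898 CPM to 2.17 to 2.80 CPM (log2FC 1.78), the metal transporter gene Slc39a14 by a log2FC of 0.90 and Cp, the ferroxidase ceruloplasmin, by 1.05. Of 25 glutathione, Nrf2 and lipid peroxide defence genes 10 rose and 1 fell (median 0.18), including the thioredoxin reductase gene Txnrd1 (0.50) and the extracellular superoxide dismutase gene Sod3 (1.04). The heme, iron and metallothionein count was 6 without aged ICH replicate 1. The glutathione count was 3, 4 and 4 without aged ICH replicate 1 and aged sham replicates 1 and 2, with 5 without aged ICH replicate 3.

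Coagulation, fibrinolysis and thrombospondin genes rose in 14 of 22 cases and fell in none (median 0.96). Beside Thbs1, the urokinase receptor gene Plaur went from 3.15, 2.09 and 4.85 CPM to 12.8, 11.5 and 12.5 CPM (log2FC 1.86, SE 0.27, adjusted *P* = 0.0043), and Anxa2, which encodes a docking protein for plasminogen on the cell surface, had a log2FC of 1.39. Of 35 matrix and protease genes 18 rose and none fell (median 0.82). Mmp12, the macrophage elastase, read 0.861, 0.337 and 2.37 CPM in sham and 9.17, 11.4 and 8.39 CPM in ICH samples (log2FC 3.00, SE 0.49, adjusted *P* = 0.0056). The matrix glycoprotein gene Tnc, the protease genes Adam8 (log2FC 2.08) and Adamts9 (1.70), the fibronectin gene Fn1 (0.99) and Col4a1 (0.80), a chain of the basement membrane collagen that collagenase digests, rose too. Of 28 endothelial and barrier genes 8 rose and 1 fell (median 0.11), with the cadherin gene Cdh5 at 17.5 to 22.5 CPM in sham and 30.6 to 35.7 CPM in ICH samples (log2FC 0.72, SE 0.13, adjusted *P* = 0.0074). Without aged ICH replicate 1 the 3 counts of rises were 7, 9 and 2. Without aged sham replicate 1 they were 7, 12 and 4, without aged sham replicate 2 they were 10, 16 and 4, and without aged ICH replicate 3 they were 9, 14 and 6.

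Stress genes rose in part. Of 27 immediate early genes 9 rose (33.3%) and 2 fell (7.41%, median 0.53). Atf3, a stress-induced transcription factor, read 3.01, 1.38 and 4.16 CPM in sham and 14.1, 9.88 and 12.8 CPM in ICH samples (log2FC 2.10, SE 0.33, adjusted *P* = 0.0050), and Jun rose by a log2FC of 0.85. In the same list Homer1 fell from 278, 244 and 261 CPM to 149, 199 and 155 CPM (log2FC −0.64, SE 0.12, adjusted *P* = 0.0084), and Npas4 had a log2FC of −0.82 (SE 0.26, adjusted *P* = 0.064). Of 21 heat shock and chaperone genes 5 rose (23.8%) and 1 fell (4.76%). The rises included Hspb1 and the inducible Hsp70 genes Hspa1b (1.35) and Hspa1a (1.18), whose near-identical coding sequences share reads. The median of the list was −0.04, with 12 members below 0. Of 29 genes of the integrated stress and unfolded protein responses 11 rose and 1 fell (median 0.36), including Cebpb (1.93) and Xbp1 (0.46). Of 28 p53, apoptosis and senescence genes 11 rose and 1 fell (median 0.54). Cdkn1a, the p53-induced inhibitor of the cell cycle, went from 21.3, 23.2 and 24.3 CPM to 60.7, 61.3 and 65.5 CPM (log2FC 1.45, SE 0.15, adjusted *P* = 0.0016). The survival gene Mcl1 (0.79), the caspase gene Casp8 (1.07) and Mlkl (1.82), the effector of necroptosis, rose as well. Without aged ICH replicate 1 the counts of rises for these 4 lists were 5, 3, 5 and 5, and the unfolded protein count was 7 without aged sham replicate 2.

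Cytosolic ribosomal protein genes showed small changes in nearly every member. All 48 tested had a log2FC above 0 and 44 passed, with a median of 0.37. Rplp0, the acidic stalk protein, went from 165, 149 and 168 CPM to 257, 224 and 234 CPM (log2FC 0.57, SE 0.08, adjusted *P* = 0.0037), and Rpl18 from 60.7 to 63.9 CPM to 89.3 to 105 CPM (log2FC 0.61, SE 0.09, adjusted *P* = 0.0042). The snoRNA host transcripts Gas5 (log2FC 0.37) and Snhg1 (0.58) rose too. The ribosomal count was 26 without aged ICH replicate 1 and 33 to 42 without each other aged sample. Many ribosomal protein genes have processed pseudogenes with which their reads can be shared. Subunits of oxidative phosphorylation encoded in the nucleus had few calls: of 45 tested, none rose and 2 fell (4.44%, median −0.05), and no fall passed without aged ICH replicate 1, 2 or 3 or aged sham replicate 1 or 2. Of 29 glycolysis and hypoxia genes 7 rose and 1 fell (median −0.06), with the hexokinase gene Hk2 at a log2FC of 1.05 and the lactate exporter gene Slc16a3 at 1.45. The glycolysis rises numbered 2, 4, 3 and 2 without aged ICH replicates 1 and 3 and aged sham replicates 1 and 2.

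**Figure D4:**
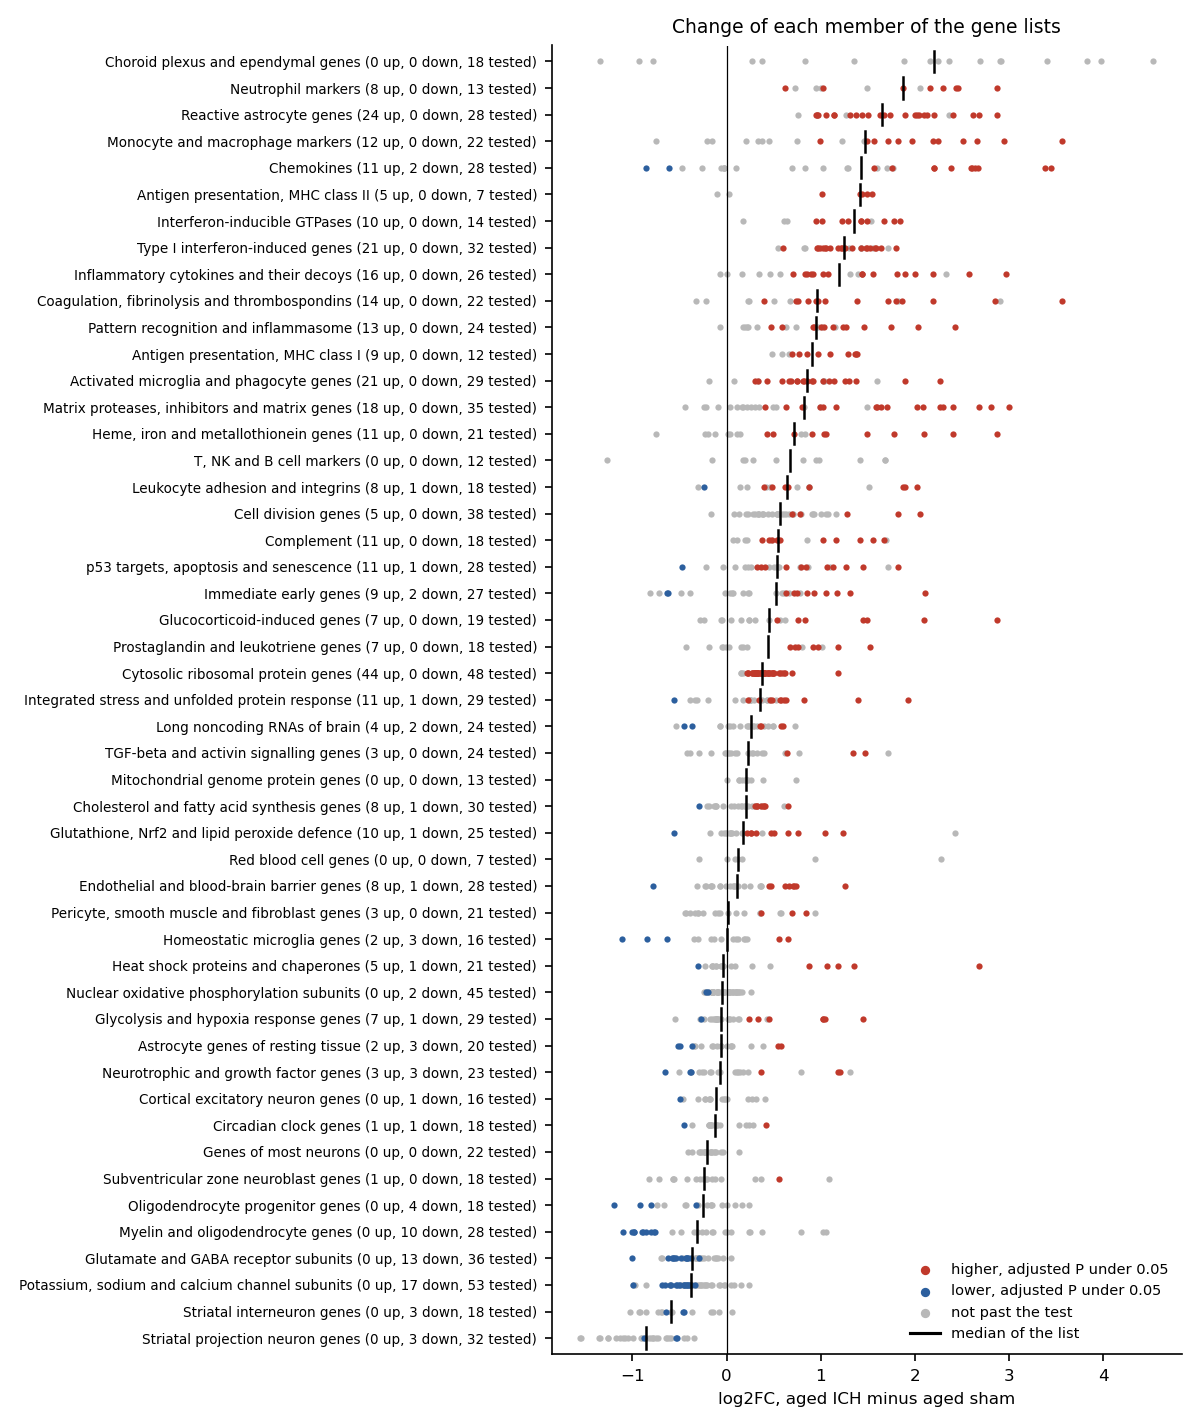
log2FC (aged ICH minus aged sham) of each tested member of 49 gene lists, ordered by the list median (black bar), with members past the test in red (higher) or blue (lower). Immune, reactive glial, heme and matrix lists lie to the right, with most of their called members higher. Receptor, channel, myelin and the striatal, cortical and general neuron lists lie to the left and hold no rise.

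Among called genes with at least 10 CPM in the higher group and no overlap between the samples, the largest fall was that of Hhip, which encodes a decoy receptor of hedgehog ligands. It read 15.2, 17.9 and 15.9 CPM in aged sham and 3.71, 8.60 and 4.46 CPM in aged ICH samples (log2FC −1.55, SE 0.27, adjusted *P* = 0.0066). Aspa, the oligodendrocyte enzyme that cleaves N-acetylaspartate, fell from 24.5, 29.4 and 33.5 CPM to 13.8, 15.6 and 11.4 CPM (log2FC −1.10, SE 0.19, adjusted *P* = 0.0064), and Trim59, a ubiquitin ligase gene, from 20.6, 28.3 and 28.7 CPM to 10.8, 12.1 and 12.9 CPM (log2FC −1.12, SE 0.16, adjusted *P* = 0.0040). Siglech, given above, the noncoding 1700047M11Rik (−1.08), Clvs1 (−1.02) and another locus without a symbol (−1.49) also passed without any 1 aged sample. Others depended on single libraries. Mme, the endopeptidase neprilysin, read 43.3, 39.7 and 23.9 CPM in sham and 8.17, 23.2 and 9.11 CPM in ICH samples (log2FC −1.41, SE 0.43). Mme and Gprin3 (−1.24) failed without aged ICH replicate 1 or 3 or aged sham replicate 1 or 2. The oligodendrocyte precursor receptor gene Gpr17 (−1.19) failed without aged ICH replicate 1, the GABA receptor gene Gabrb2 (−1.01) without aged ICH replicate 1 or 3 or aged sham replicate 1, and the synaptic organizer gene Cbln4 (−1.10) without any 1 aged sample but aged sham replicate 2. Over the alternatives the adjusted *P* reached 0.18 for Mme, 0.14 for Gprin3, 0.051 for Gpr17, 0.071 for Gabrb2 and 0.093 for Cbln4, and its lowest values were 0.0090, 0.0014, 8.4e-06, 0.00021 and 0.0012.

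The falls with the smallest *P* were moderate and even between samples. Dip2c read 101, 92.1 and 90.8 CPM in sham and 65.8, 67.5 and 64.5 CPM in ICH samples (log2FC −0.52, SE 0.06, adjusted *P* = 0.0017). Erbb4, the neuregulin receptor of interneurons, went from 78.7, 80.9 and 83.2 CPM to 50.5, 53 and 50.3 CPM (log2FC −0.66, SE 0.08, adjusted *P* = 0.0030), and Scrn1 from 316, 303 and 275 CPM to 162, 205 and 178 CPM (log2FC −0.71, SE 0.08, adjusted *P* = 0.0029). The remaining ones were Galntl6 (−0.75), Clvs1 (−1.02), Epm2aip1 (−0.42), the tubulin-modifying Ttll7 (−0.73) and Fam198b (−1.10).

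Among neuronal receptors and channels there were falls and no rise. Of 36 glutamate and GABA receptor subunits 13 fell (median −0.37), and 35 had a log2FC below 0. The kainate receptor gene Grik3 went from 149, 121 and 134 CPM to 94.0, 87.0 and 92.4 CPM (log2FC −0.56, SE 0.11, adjusted *P* = 0.0099), and the metabotropic receptor gene Grm3, expressed by astrocytes and neurons, from 53.1, 62.9 and 57.7 CPM to 37.3, 42.9 and 35.8 CPM (log2FC −0.58, SE 0.11, adjusted *P* = 0.0078). Of 53 potassium, sodium and calcium channel subunits 17 fell (median −0.38), among them Kcnq3, a subunit of the M-current channel, from 265, 222 and 259 CPM to 146, 183 and 168 CPM (log2FC −0.59, SE 0.11, adjusted *P* = 0.0080). These counts varied with the libraries. The receptor count was 2 without aged ICH replicate 1, 3 without aged ICH replicate 3, 3 without aged sham replicate 1, 5 without aged sham replicate 2 and 8 without aged sham replicate 3. The channel count was 2, 5, 3 and 7 without the first 4 of these.

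Genes that define striatal projection neurons had the lowest median of the 49 lists, −0.86, and all 32 had a log2FC below 0, while 3 passed the test (9.38%, against 6.15% of all tested genes). The median was −0.53 without aged ICH replicate 1 and −1.54 without aged ICH replicate 2. The dopamine receptor gene Drd1 read 111, 128 and 65.8 CPM in sham and 14.1, 92.9 and 37.3 CPM in ICH samples (log2FC −1.08, SE 0.60, adjusted *P* = 0.26), and Adora2a, the adenosine receptor of the indirect pathway, read 92.0, 106 and 56.5 CPM and 7.86, 70.1 and 23.2 CPM (log2FC −1.34, SE 0.66, adjusted *P* = 0.21). In both, aged ICH replicate 2 overlapped the sham range. The cannabinoid receptor gene Cnr1 did not overlap, at 283, 220 and 239 CPM against 133, 149 and 122 CPM (log2FC −0.88, SE 0.16, adjusted *P* = 0.0073). Foxp1 (−0.52) and Arpp19 (−0.54) were the others, and both failed without aged ICH replicate 1 or 3 or aged sham replicate 1 or 2. Without aged ICH replicate 2 the count was 24 of 32, and without any other aged sample it was 1 to 3. Of 18 striatal interneuron genes 3 fell (median −0.59), with 6 without aged ICH replicate 2, none without aged ICH replicate 1 and 1 each without aged ICH replicate 3 and aged sham replicates 1 and 2. Genes of most neurons had no call among 22 in edgeR (median −0.21), with 5 lower at an unadjusted *P* under 0.05 and 3 falls in DESeq2. Of 16 cortical excitatory neuron genes 1 fell (6.25%, near the 6.15% of all tested genes, with a median of −0.11). This was Nrn1 (−0.49), which failed without any 1 of the aged samples.

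Myelin genes fell in 10 of 28 cases and rose in none (median −0.31). The ceramide galactosyltransferase gene Ugt8a, which makes the main myelin lipid, went from 56.1, 62.2 and 64.7 CPM to 31.9, 35.5 and 25.4 CPM (log2FC −0.98, SE 0.18, adjusted *P* = 0.0082), and the oligodendrocyte receptor gene Gpr37 from 70.2, 87.2 and 80.7 CPM to 36.9, 44.5 and 37.6 CPM (log2FC −1.0, SE 0.18, adjusted *P* = 0.0080). The myelin basic protein gene Mbp read 2367, 3108 and 2916 CPM in sham and 2325, 2305 and 1989 CPM in ICH samples (log2FC −0.34, SE 0.17, adjusted *P* = 0.22). The summed myelin list overlapped between the groups, at 6595 to 8312 CPM in sham and 5285 to 6653 CPM in ICH samples. The count of 10 was 3 without aged ICH replicate 1 and 5 without either aged ICH replicate 3 or aged sham replicate 2.

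In absolute terms, the largest gain in mean CPM among called genes was that of mt-Rnr1, a mitochondrial ribosomal RNA, from 3526, 3743 and 3954 CPM to 5041, 4778 and 4435 CPM (log2FC 0.34). Gfap, Fth1, Actb, Serpina3n, Mt1 and Tmsb4x followed with Apod, the lipid carrier apolipoprotein D, at 513, 309 and 488 CPM in sham and 989, 1065 and 905 CPM in ICH samples (log2FC 1.18, SE 0.22, adjusted *P* = 0.0087). The cytoskeletal genes Actb and Tmsb4x rose by 0.45 and 0.50, the ferritin heavy chain gene Fth1 by 0.43 and the acute phase gene Serpina3n by 1.89. Of these, mt-Rnr1 failed without aged ICH replicate 1 or aged sham replicate 1 or 2, Fth1 without any 1 aged sample but aged ICH replicate 2 and aged sham replicate 3, and Serpina3n without aged ICH replicate 1 or 3, with a highest adjusted *P* over the alternatives of 0.11, 0.13 and 0.072 and a lowest of 9.6e-05, 0.0025 and 0.0020. RNA from a mitochondrial ribosomal gene in a library of this kind also depends on how such RNA was removed or selected, which the sources used here do not give.

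Among the largest losses in CPM were those of Glul, given above, 2900097C17Rik, App, Map1b, Cplx2, Atp2b1 and Sptbn1. Atp2b1, a calcium pump of the plasma membrane, went from 1188, 970 and 1009 CPM to 659, 831 and 719 CPM (log2FC −0.52, SE 0.10, adjusted *P* = 0.0091). App, the amyloid precursor protein gene, went from 1642, 1542 and 1509 CPM to 1187, 1215 and 1249 CPM (log2FC −0.36) and stood at an adjusted *P* of 0.055 without aged ICH replicate 1, within a range of 6.3e-07 to 0.055 over the alternatives. The axonal and synaptic genes Map1b (−0.50), Cplx2 (−0.38) and Sptbn1 (−0.49) and the noncoding 2900097C17Rik (−0.36) failed without aged ICH replicate 1 or 3, and all but Map1b also without aged sham replicate 1 or 2, 2900097C17Rik in addition without aged sham replicate 3. Their highest adjusted *P* over the alternatives was 0.066, 0.19, 0.059 and 0.17, and the lowest was 0.00018, 0.0076, 0.00067 and 0.0049.

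Set beside young mice, the aged response ran in the same direction for most genes. In young ICH against young sham samples 2125 genes rose (9.89%) and 1985 fell (9.23%). Of the 1505 aged rises, 1145 also rose in young mice, 76.1% of the aged and 53.9% of the young list, and of the 1323 aged falls 984 also fell, 74.4% of the aged and 49.6% of the young list. Over all 21495 tested genes the log2FC of the 2 ages had a Pearson r of 0.726 and a Spearman rho of 0.692, a description across genes that are not independent. The difference between the ages was tested gene by gene as an interaction. In edgeR 0 genes passed an adjusted *P* of 0.05, with 606 genes at an unadjusted *P* under 0.05 (2.82% of those tested), 195 with a larger (0.907%) and 411 with a smaller (1.91%) log2FC in aged mice. With no age difference at all, a share of about 0.05 would be under this limit, so 606 is no excess. The median SE was 0.224 for the interaction and 0.159 for the aged contrast, so that modest differences between the ages could be missed. DESeq2 called 1 gene, the small nuclear RNA gene Rn7sk (adjusted *P* = 2.2e-05), at 3.74, 3.84 and 5.09 CPM in aged sham and 5.52, 6.06 and 5.31 CPM in aged ICH samples, with a log2FC of 0.41 in aged and −1.34 in young mice. Its adjusted *P* in edgeR was 0.48.

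The values of some lists at the 2 ages are set side by side, and no difference between the ages was tested for a list. Over all tested genes 7.0% rose and 6.15% fell in aged mice, and 9.89% rose and 9.23% fell in young mice. The type I interferon list had 21 rises in aged and 3 in young mice, with a median log2FC of 1.25 and 0.57. All 32 of its genes had a larger log2FC in aged mice (median interaction log2FC 0.68). None of the 32 had an unadjusted interaction *P* under 0.05 in edgeR. Myelin genes had 10 falls in aged mice and 3 rises with no fall in young mice. The interaction *P* in edgeR was under 0.05, unadjusted, for 7 of 28. The 3 young rises among 28 myelin genes, and the 3 among 32 interferon genes, were near the share of 9.89%. Red blood cell genes had no call in aged and 3 rises and 1 fall in young mice, with medians of 0.12 and 2.19. The aged median was −0.32 without aged ICH replicate 3 and 0.40 without aged ICH replicate 2. Ribosomal protein genes had 44 rises in aged and 42 in young mice, with medians of 0.37 and 0.36. Among the genes with the smallest interaction *P* were Fam19a1 (log2FC −0.27 in aged and −1.02 in young mice, interaction *P* unadjusted 0.00041 in edgeR), Sorcs3 (−0.46 and −0.88) and Cd22 (0.31 and 2.40).

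**Figure D5:**
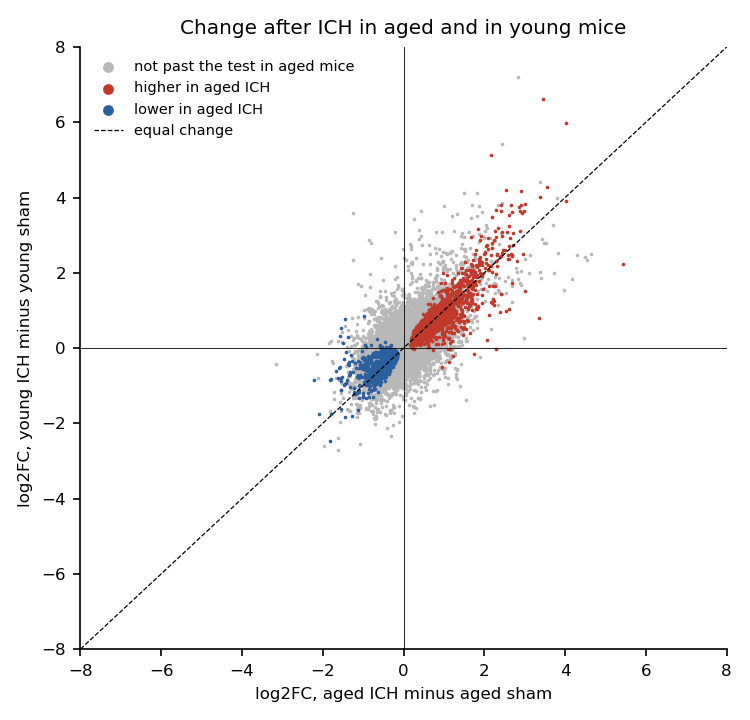
log2FC of each tested gene in young mice (young ICH minus young sham) against that in aged mice (aged ICH minus aged sham), with genes past the test in aged mice in red (higher) or blue (lower) and the line of equal change dashed. Of the aged rises 1496 of 1505, and of the aged falls 1304 of 1323, lay on the same side of 0 in young mice.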

How the data were processed

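RNA from perihematomal caudate putamen was sequenced in 12 samples, 3 for each of aged ICH, aged sham, young ICH and young sham. Per the labels and the methods of the study, the authors aligned reads to GRCm38.p6 with HISAT2 and deposited raw read counts per gene from featureCounts (Subread) with FPKM values derived from them. Strand setting and the treatment of multi-mapped reads are not given in the sources used here. The count and FPKM columns were read by sample name, and 0 columns were left unmapped.

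Counts were tested with edgeR 4.0.16 (glmQLFit, glmQLFTest) in R 4.3.3 over all 12 samples, with TMM scaling and filterByExpr at a minimum count of 10, which left 21495 genes. A gene was called at a Benjamini-Hochberg adjusted *P* under 0.05. The age difference was the interaction contrast. Replicate libraries differed by more than sampling noise (chi-square per degree of freedom 9.25 to 42.7). The procedure was first tested on simulated data. Depth was 28410896 to 37785160 counts. Each sample was a pool of 2 or 3 mice, so *P* values measure the spread between pools. CPM are TMM-scaled. FPKM, as deposited, served only for levels between genes.

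Named genes were the 12 largest rises and 12 largest falls (no overlap of samples, at least 10 CPM in the higher group), the 8 smallest *P* and the 8 largest gains and losses of mean CPM in each direction, the 6 in each direction with the smallest interaction *P*, and members of 49 lists. The gene lists were chosen with earlier results of these data known. Some genes, such as Lcn2 and Thbs1, are on more than 1 list, so that the counts of different lists are not independent. Promoter sequences are from RefSeq (GRCm38.p6), and 13464 tested genes had at least 1 window. Alternatives were DESeq2 1.42.0, its size factors in edgeR, total counts, no filter, a replicate block, the aged samples alone, other call rules and leaving out each sample. A few named genes are not reported here.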

Additional observations from a re-analysis of the deposited data

How the results depend on the processing

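The 1505 rises and 1323 falls in aged mice ranged from 409 to 1718 and from 270 to 1609 when 1 of the 12 samples was left out, with the lowest counts without aged ICH replicate 1 (409 and 270), and 714 and 559 without aged sham replicate 2 and 751 and 471 without either aged ICH replicate 3 or aged sham replicate 1. With 2 samples left in a group, fewer calls follow in part from the smaller group. Total counts as the only scaling gave 2100 and 747, DESeq2 1806 and 1896, DESeq2 size factors in edgeR 1479 and 1377, no filter 1341 and 1101 and the aged samples alone 1349 and 1132. The study's rule of a fold above 1.5 or below 0.67 at an unadjusted *P* under 0.05 gave 1557 and 607, and the same fold with the adjusted *P* 893 and 284. The interaction had 0 calls in edgeR and 1 rise in DESeq2. The same fold and unadjusted *P* limits, applied to the edgeR interaction contrast, gave 104 and 232 genes. The study's sets of genes changed more in aged mice had a different criterion, with no *P* limit on the difference between the ages. A further set of risen genes also had to be higher in aged ICH than in young ICH samples by its fold and *P* rule.

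The replicate numbers were checked as pairs. The correlation of same-numbered samples' deviations from their group means was 0.0915, 0.235 and −0.0995 in aged mice and 0.0741, 0.165 and −0.222 in young mice, not every sample correlated best with its own number, and the numbers were taken not to pair the samples. With the replicate number as a block the counts were 1393 and 1071.

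None of the 2828 called genes changed direction in any of these fits (2815 were tested with the aged samples alone). As the fits reuse the same samples and nearly all called genes had no overlap between the groups, this was largely set in advance. Between 672 and 2801 of the genes were still called. Among the genes named, Tgm1, Ccl2, Cxcl1, Ifit1, Hmox1, Serpina3n, Mme, Gprin3, Glul, Cplx2, Sptbn1, Arpp19, Foxp1 and Slc2a5 did not pass with the aged samples alone. Mme, Glul, 2900097C17Rik, Cplx2, Foxp1, Slc2a5 and Nrn1 did not with total counts only, and Mme, Foxp1, Slc2a5 and Nrn1 did not with the replicate block. The cause was not tested. Of the genes that had not passed, the sign of log2FC varied with the sample left out for Bdnf (−0.14 to 0.041), Hbb-bs (−0.29 to 0.40) and Tnf (−0.025 to 1.4).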

Other observations

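Other gene lists in aged ICH against aged sham samples are given beside the share over all tested genes, of which 7.0% rose and 6.15% fell. Of 18 prostaglandin and leukotriene genes 7 rose (38.9%, median log2FC 0.44), with Alox5ap, the activating protein of 5-lipoxygenase, at 3.38, 2.90 and 3.11 CPM in sham and 4.88, 5.52 and 5.12 CPM in ICH samples (log2FC 0.72, SE 0.13, adjusted *P* = 0.0078 in edgeR). Without aged ICH replicate 1 the count was 1, without aged ICH replicate 3 and aged sham replicate 1 it was 4, and without aged sham replicate 2 it was 3. Of 18 adhesion and integrin genes 8 rose (44.4%) and 1 fell (median 0.64), against 3 rises without aged ICH replicate 1 or 3, 4 without aged sham replicate 1 and 5 without aged sham replicate 2, and no fall without any 1 aged sample other than ICH replicate 2. Of 19 glucocorticoid-induced genes 7 rose (36.8%, median 0.45), and the count was 4 without aged ICH replicate 1. Of 24 genes of transforming growth factor signalling 3 rose (12.5%, median 0.23), Tgif1 among them, from 2.98, 2.33 and 3.83 CPM to 9.39, 6.26 and 7.48 CPM (log2FC 1.34, SE 0.26, adjusted *P* = 0.0093). That count was 1 without aged ICH replicate 1 or 3 or aged sham replicate 1. Of 23 neurotrophic and growth factor genes 3 rose and 3 fell (13% each, median −0.08). Hbegf, an epidermal growth factor receptor ligand, went from 19.5, 15.8 and 22.0 CPM to 47.5, 35.3 and 47.3 CPM (log2FC 1.19, SE 0.16, adjusted *P* = 0.0038). The list had 1 rise without aged ICH replicate 1 or 3 or aged sham replicate 1 or 2, and 1 fall without aged ICH replicate 1. Bdnf read 21.2 to 27.0 CPM in sham and 21.3 to 22.8 CPM in ICH samples (log2FC −0.08, SE 0.17, adjusted *P* = 0.81).

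Of 38 cell division genes 37 had a positive log2FC (median 0.56) and 5 passed (13.2%), against none without aged ICH replicate 1 or aged sham replicate 2, 1 without aged sham replicate 3, 2 without aged ICH replicate 3, 8 without aged ICH replicate 2 and 12 in DESeq2. Of 30 cholesterol and fatty acid synthesis genes 8 rose (26.7%) and 1 fell (median 0.20), with no rise left without aged ICH replicate 1, 2 without aged ICH replicate 3 or aged sham replicate 1, 3 without aged sham replicate 2 and 13 without aged ICH replicate 2, and the fall was called only without aged ICH replicate 3 or aged sham replicate 3 among these fits. Of 18 oligodendrocyte progenitor genes 4 fell (22.2%, median −0.26), against 6 without aged ICH replicate 2, none without aged ICH replicate 1 and 1 without each of the other aged samples. Of 21 pericyte, smooth muscle and fibroblast genes 3 rose (14.3%, median 0.02), against none without aged ICH replicate 1 or aged sham replicate 1 or 2 and 1 without aged ICH replicate 3. Of 18 neuroblast genes 1 rose (5.56%, median −0.24), Sox4 (log2FC 0.56), which failed without aged ICH replicate 1. Of 18 circadian genes 1 rose and 1 fell (5.56% each, median −0.13), the rise being called without aged ICH replicate 2 and in none of the other fits that left out an aged sample, and the fall in each of them except that without aged ICH replicate 1. Of 24 long noncoding RNAs of brain 4 rose (16.7%) and 2 fell (8.33%, median 0.26), against 2 rises without aged ICH replicate 1 or 3 or aged sham replicate 1, 7 without aged ICH replicate 2, and no fall without aged ICH replicate 1 or 2 or aged sham replicate 1 or 2. None of 13 mitochondrial protein genes passed in edgeR (median 0.20), with 4 higher at an unadjusted *P* under 0.05 and 3 rises in DESeq2, and none of 18 choroid plexus and ependymal genes did (median 2.20), with 5 higher at an unadjusted *P* under 0.05 and 2 rises in DESeq2.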
